A study of Rattus norvegicus with 10 samples.

Results

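The 10 genes described here are markers of the macrophages that line brain blood vessels and of blood monocytes: Cd163, Mrc1, Lyve1, F13a1, Pf4, Ms4a7, Msr1, Cd14, Lyz2 and Plac8. They were taken by symbol from the 32623 genes in the deposited table, and each matched 1 row. RNA was sequenced from the supraoptic nucleus, where the vasopressin and oxytocin neurons of the hypothalamus lie, of male Sprague-Dawley rats weighing 250 to 300 g. The age of the rats and the promoter and serotype of the viruses were not given in the sources used here. In each rat, an adeno-associated virus carried an shRNA to Opn3, the gene of the light-sensing protein opsin 3, into the nucleus of one side, and a second virus carried a non-targeting shRNA into the other. Nuclei were taken 2 weeks later with a 1 mm punch from 100 µm sections and extracted singly, which gave 5 shControl and 5 shOpn3 samples. Both groups had thus been injected with virus, no uninjected nucleus was analysed here, and an effect of a single hairpin sequence cannot be told apart from that of less Opn3.

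Macrophages of the brain's borders lie between the vessel wall and the tissue, take up proteins, sugars and debris from the fluid there, and differ in their surface receptors from the microglia within the tissue. Cd163, Mrc1 and Lyve1 are such receptors, and F13a1, Pf4 and Ms4a7 are widely used with them to tell these cells from microglia. Monocytes are the blood cells that enter tissue and become macrophages, and they are rich in Cd14, Lyz2 and Plac8. None of the 10 genes is restricted to 1 cell type: Pf4 is also made by platelets, Lyve1 by lymphatic vessels and Lyz2 by neutrophils and activated microglia. In punched tissue, fewer or more cells of a type and less or more RNA per cell cannot be told apart.

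The start regions of 3 of these genes are shown because they differ in the short motifs whose letters they match. Mrc1, which rose, and F13a1, which did not pass the test, match the core of the site of PU.1 (the macrophage transcription factor encoded by Spi1). Ms4a7 matches the letters of an interferon-stimulated response element. These are matches of letters alone, and binding or activity was not tested. Each region is the stretch of 250 bases before the start of the gene, from RefSeq on assembly GRCr8. It is written 5′ to 3′ on the gene's strand, with the matched letters in capitals. The regions lie at chr17:82157475-82157724 on the plus strand for Mrc1, chr17:28020947-28021196 on the plus strand for F13a1 and chr1:217409644-217409893 on the minus strand for Ms4a7.
Mrc1: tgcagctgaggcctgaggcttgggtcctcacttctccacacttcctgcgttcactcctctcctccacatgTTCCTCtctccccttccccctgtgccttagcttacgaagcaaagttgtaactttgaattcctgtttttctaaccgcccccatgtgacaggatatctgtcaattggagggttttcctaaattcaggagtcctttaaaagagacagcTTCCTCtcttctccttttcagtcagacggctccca
F13a1: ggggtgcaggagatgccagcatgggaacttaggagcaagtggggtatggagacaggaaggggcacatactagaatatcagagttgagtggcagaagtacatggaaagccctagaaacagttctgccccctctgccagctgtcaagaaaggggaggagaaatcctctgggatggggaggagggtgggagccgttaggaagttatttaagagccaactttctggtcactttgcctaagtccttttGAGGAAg
Ms4a7: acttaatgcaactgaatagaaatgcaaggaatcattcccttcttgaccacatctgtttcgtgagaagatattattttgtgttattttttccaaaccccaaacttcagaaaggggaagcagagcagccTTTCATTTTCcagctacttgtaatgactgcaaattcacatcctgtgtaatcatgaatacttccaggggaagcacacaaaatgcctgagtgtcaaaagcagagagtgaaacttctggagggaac
The PU.1 core was searched as GAGGAA and the response element as GAAA, any 2 bases and GAAA again, both on either strand, and no match of one overlapped a match of the other. In Mrc1 the core began 180 and 35 bases before the start, both on the opposite strand. In F13a1 it began 7 bases before the start on the gene's strand, and in Ms4a7 the response element began 123 bases before the start on the opposite strand. Of the 8 members with a window, 4 held the PU.1 core (Mrc1, F13a1, Cd14 and Lyz2), against 23.3% of the 33469 windows of that table. Of the 5 windows that end at the start given in the gene table, 2 held the core. The response element stood in 1 of the 8, against 3.41% of all windows. The windows of Cd14, Lyz2 and Cd163 did not end at the start that the gene table gives for these genes, so their motif positions are not described.

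Of the 10 genes, 5 rose in shOpn3 and 0 fell by limma with Benjamini-Hochberg adjustment over the 15597 genes tested, whereas 10.4% of those genes rose and 8.48% fell. Unless a blocked fit is named, limma values here compare the groups without the replicate numbers. The 5 were the mannose receptor Mrc1, the scavenger receptor Msr1, the lipopolysaccharide co-receptor Cd14, lysozyme (Lyz2) and Plac8. The 3 receptors and lysozyme rose 1.45-fold to 1.66-fold, and Plac8 3.58-fold. Cd163, Lyve1, F13a1, Pf4 and Ms4a7 did not pass the test. Without shControl replicate 1 or shOpn3 replicate 3 the count was 3. The median log2 fold change of the 10 was 0.52, and that of all genes tested was -0.02. All 10 passed the filter on low values, a mean normalized count of at least 10, and 9 had a fold change above 0. In the authors' deposited table the same 5 had an adjusted p under 0.05, where 21.3% of the genes with an adjusted p did.

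Mrc1 encodes the mannose receptor, which takes up glycoproteins ending in mannose. Its normalized count, the read count divided by the sample's size factor, was 896, 1231, 960.3, 1291 and 870.4 in shControl replicates 1 to 5 and 1376, 1365, 1675, 2039 and 1192 in the shOpn3 replicates of the same numbers. Each shOpn3 sample was above the shControl sample of its number, and the groups overlapped because shOpn3 replicate 5 lay below shControl replicates 2 and 4. The mean was 1049.8 ± 197 against 1529 ± 334 (SD, n = 5 each). This 1.45-fold rise (95% interval 1.15 to 1.84) was 0.54 on the log2 scale (SE 0.157). Its adjusted p was 0.0316 by limma, and the exact two-sided permutation p was 0.0238. The adjusted p by limma was 0.0639 to 0.083 when shControl replicate 1, 3 or 5 or shOpn3 replicate 3 or 4 was left out, and 0.089 with sample quality weights.

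Cd163 encodes the receptor through which macrophages clear haemoglobin bound to haptoglobin. Its normalized count was 115, 209, 132, 137 and 101 in shControl and 171, 160.4, 193, 245 and 145 in shOpn3. In 4 of 5 numbers the shOpn3 sample was the higher, and the reverse held for number 2, where shControl had its highest sample. The means were 139 ± 41.5 and 183 ± 39.1 (SD, n = 5 each). On the log2 scale they differed by 0.42 (SE 0.2) with an adjusted p of 0.173 by limma, which did not pass the test. Without shControl replicate 2 the log2 fold change was 0.58 and the adjusted p by limma 0.047.

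Lyve1 encodes a receptor for hyaluronan, a sugar polymer of the extracellular matrix. Normalized counts of Lyve1 were 145, 187, 137, 213 and 173 in shControl and 144, 173, 157, 243 and 166 in shOpn3. The groups covered nearly the same range, and 2 of 5 numbers were higher in shOpn3. The fold change was 1.03 with a 95% interval of 0.799 to 1.33, and the adjusted p was 0.895 by limma.

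F13a1 encodes the catalytic subunit of coagulation factor XIII, a transglutaminase that cross-links fibrin. For F13a1 the normalized count was 576, 863, 611, 907 and 804 in shControl and 619.8, 833, 913, 1357 and 867 in shOpn3. The groups overlapped, and 4 of 5 numbers were higher in shOpn3, most of all numbers 3 and 4. The fold change was 1.20 (95% interval 0.899 to 1.6) with an adjusted p of 0.381 by limma.

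Pf4 encodes platelet factor 4, a chemokine that binds heparin. Pf4 stood at normalized counts of 138, 138, 71.4, 134 and 195 in shControl and 129.5, 65.8, 94.4, 237 and 173 in shOpn3. The lowest and the highest of the 10 samples were both shOpn3 samples. The log2 fold change of -0.02 (SE 0.335) had the second largest standard error of the 10 members, its 95% interval ran from 0.594-fold to 1.63-fold, and the adjusted p was 0.974 by limma. For Pf4 the authors' deposited table has a log2 value of 0.05.

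Ms4a7 encodes a small membrane protein of the MS4A family. Ms4a7 had normalized counts of 26.5, 38.7, 29.6, 44.0 and 24.3 in shControl and 31.7, 49.9, 51.4, 49.3 and 50.3 in shOpn3. In shOpn3 replicates 2 to 5 it was above every shControl sample, while replicate 1 lay within the shControl range. The log2 fold change was 0.51 (SE 0.217) with an adjusted p of 0.123 by limma, which did not pass the test, and without shOpn3 replicate 1 it was 0.64 with an adjusted p of 0.0497.

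Msr1 encodes the class A scavenger receptor, which binds modified lipoproteins and other charged ligands. Msr1 was measured at normalized counts of 99.9, 119, 121, 156 and 109.7 in shControl and 211, 183, 175, 266 and 164 in shOpn3. Every shOpn3 sample was above every shControl sample. The mean was 121 ± 21.4 against 199.7 ± 40.7 (SD, n = 5 each), or 0.71 higher on the log2 scale (SE 0.162), with an adjusted p of 0.00961 by limma. The exact permutation p of 0.00794 is the smallest that 5 against 5 unpaired samples allow, and this test did not use the replicate numbers.

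Cd14 encodes the co-receptor that hands bacterial lipopolysaccharide to Toll-like receptor 4. Its normalized count was 80.5, 84.5, 73.5, 101 and 113 in shControl and 142, 135, 121, 191 and 155 in shOpn3. Here too the groups did not overlap. The mean was 90.5 ± 16.1 against 149 ± 26.8 (SD, n = 5 each), and the log2 fold change of 0.71 (SE 0.164) had an adjusted p of 0.00984 by limma.

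Lyz2 encodes lysozyme, an enzyme that breaks bacterial cell walls. Lysozyme transcripts had normalized counts of 3552, 4899, 4719.7, 6228 and 5713 in shControl and 6274, 6509, 10456, 12421 and 6941 in shOpn3. The groups did not overlap, although shOpn3 replicate 1 exceeded shControl replicate 4 only narrowly, and shOpn3 replicates 3 and 4 stood above the other samples of their group. The log2 fold change was 0.73 (SE 0.204) with an adjusted p of 0.0255 by limma. Without shControl replicate 1 or 2 or shOpn3 replicate 3 it was 0.0565, 0.0523 and 0.0714. Reads of Lyz2 could be shared with its near copy Lyc2, which had a normalized count of at most 28.8 in any sample.

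Plac8 encodes a small cysteine-rich protein found in monocytes and other blood cells. Per sample, the normalized count was 247, 289, 170.4, 308 and 379.8 in shControl and 307, 792, 1461, 2195 and 1085 in shOpn3. In shOpn3 replicates 2 to 5 it was above every shControl sample, and replicate 1 lay below shControl replicates 4 and 5. The mean was 279 ± 77.4 against 1168 ± 712 (SD, n = 5 each). The 3.58-fold rise had a 95% interval of 1.89 to 6.78 and an adjusted p of 0.00984 by limma, with an exact permutation p of 0.0238. For Plac8 the authors' deposited table has a log2 fold change of 2.07. Cd14, Msr1 and Plac8 passed the test under all 22 alternatives, and Lyve1, F13a1 and Pf4 under none of them.

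**Figure D1:**
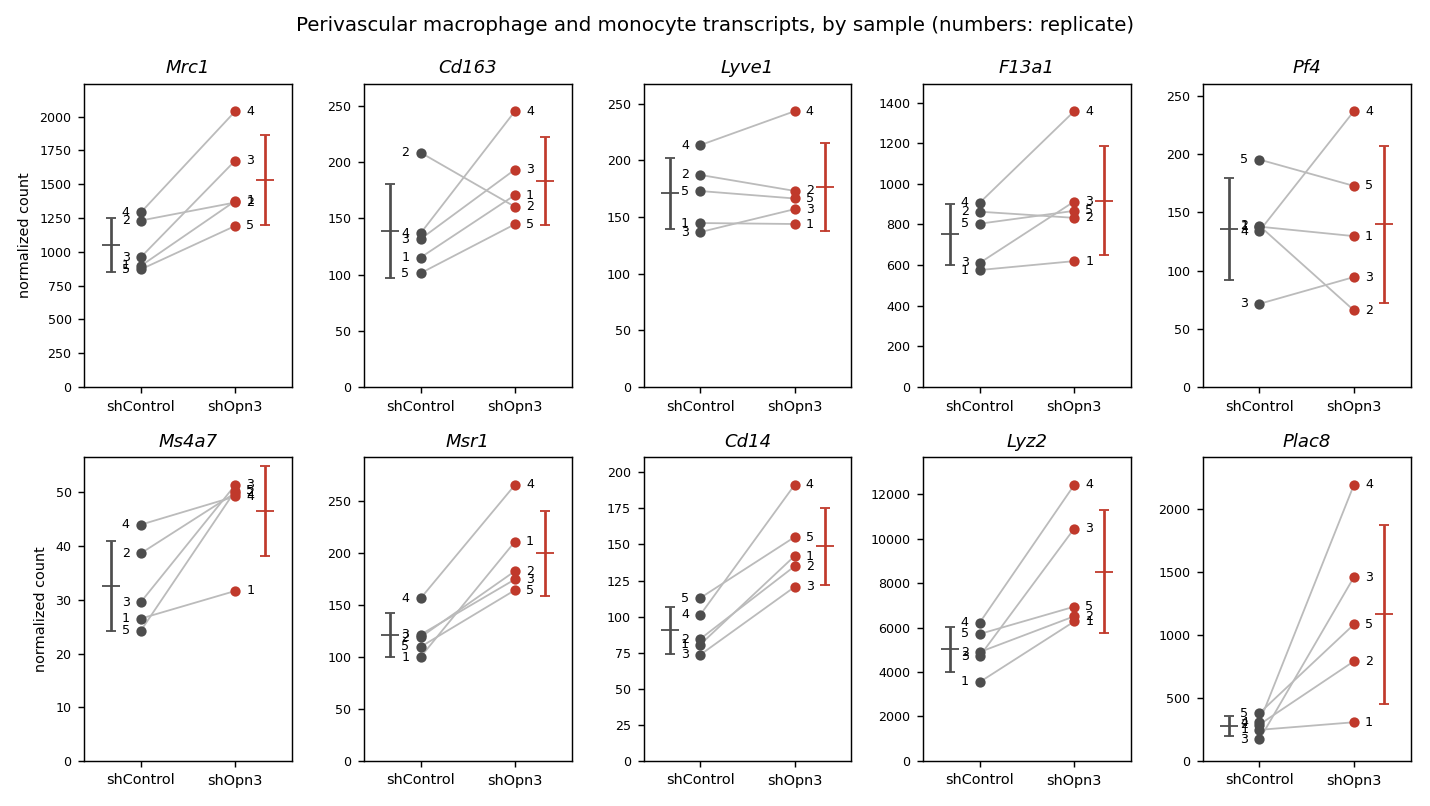
Normalized counts of the 10 genes on linear axes from 0, 1 panel per gene, with each sample as a point labelled by its replicate number, same-numbered samples joined by a line, and the group mean ± SD as a bar. The shOpn3 samples of Msr1, Cd14 and Lyz2 are all above the shControl samples, whereas those of Lyve1 and Pf4 overlap them over most of their range.

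The groups did not overlap, with shOpn3 the higher, for 3 of the 10 genes, against 8.03% of all genes tested. All 5 numbers were higher in shOpn3 for 6 genes (Mrc1, Ms4a7, Msr1, Cd14, Lyz2 and Plac8), against 18.7% of all genes tested. By number, the shOpn3 sample was the higher for 8, 6, 10, 10 and 8 of the 10 genes in numbers 1 to 5. The share of all genes tested was not computed for single numbers, so these counts describe the members alone. The samples of number 4 stood out in both groups: shControl replicate 4 had the group's highest value for 6 of the 10 genes, and shOpn3 replicate 4 for 9. With both samples of number 4 left out, 5 of the 10 genes passed the test and 7.6% of all genes tested rose, an alternative chosen after the data were seen. The blocked fit, which compares same-numbered samples, called the same 5, and 15.1% of all genes tested rose. In it the adjusted p by limma was 0.00419 for Mrc1 and 0.00407 for Lyz2. Cd163, Lyve1, F13a1, Pf4 and Ms4a7 again did not pass the test.

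Csf1r, the growth factor receptor that microglia and other macrophages share, served as a scale for how far each gene moved with macrophage transcripts in general. Its normalized count went from 5257 ± 876 to 11091 ± 2731 (SD, n = 5 each), with no overlap, a log2 fold change of 1.06 (SE 0.168) and an adjusted p of 0.00128 by limma. Per 100 normalized counts of Csf1r, the counts of 5 members fell: Cd163, Mrc1, Lyve1, F13a1 and Pf4. On this scale 88.3% of all genes tested fell and 1.18% rose, and the members' 5 falls of 10 are to be read against that share. Without shControl replicate 2 the count was 3, with Cd163 at an adjusted p of 0.0768 by limma. Lyve1 per 100 Csf1r was 2.33, 3.60, 3.06, 4.93 and 2.84 in shControl and 1.41, 2.33, 1.29, 1.64 and 1.54 in shOpn3. No shOpn3 sample reached the lowest shControl sample, although shOpn3 replicate 2 came close to shControl replicate 1, and the log2 difference of -1.01 had an adjusted p of 0.000266 by limma. Pf4 per 100 Csf1r went from 2.56 ± 0.661 to 1.22 ± 0.385 (SD, n = 5 each), and the groups met at 1.6, in shControl replicate 3 and shOpn3 replicate 5. Mrc1 per 100 Csf1r went from 20.7 ± 6.57 to 14.1 ± 2.65, with an adjusted p of 0.0366 by limma that was 0.06 in the blocked fit, and the call was lost under 8 of 15 alternatives. Cd163 per 100 Csf1r went from 2.73 ± 0.970 to 1.68 ± 0.296 and F13a1 from 14.7 ± 4.34 to 8.39 ± 1.92, and all 5 of these ratios were lower in every same-numbered pair. Csf1r itself was higher in shOpn3 in all 5 numbers, by 0.51 to 1.78 on the log2 scale. The share of all genes with a lower ratio in every pair was not computed, so this cannot be read as particular to the members. The ratios of Cd14, Lyz2, Msr1 and Ms4a7 had log2 differences from -0.54 to -0.33 and did not pass the test. With the leukocyte gene Ptprc as the reference these 4 ratios fell too, at adjusted p from 0.00441 to 0.00959 by limma, so that 9 of 10 members fell, as did 94.6% of all genes tested.

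Plac8 was the 1 member that rose relative to Csf1r. Per 100 Csf1r it was 3.98, 5.56, 3.82, 7.12 and 6.24 in shControl and 3.01, 10.7, 12.0, 14.7 and 10.1 in shOpn3. In shOpn3 replicates 2 to 5 the ratio was above every shControl sample, while replicate 1 was the lowest of all 10. The log2 difference was 0.78 (SE 0.3) with an adjusted p of 0.0167 by limma and an exact permutation p of 0.119. The limma call for Plac8 relative to Csf1r was lost without shOpn3 replicate 3 (adjusted p 0.0543) or 4 (0.0539), and with Ptprc as the reference (0.373).

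**Figure D2:**
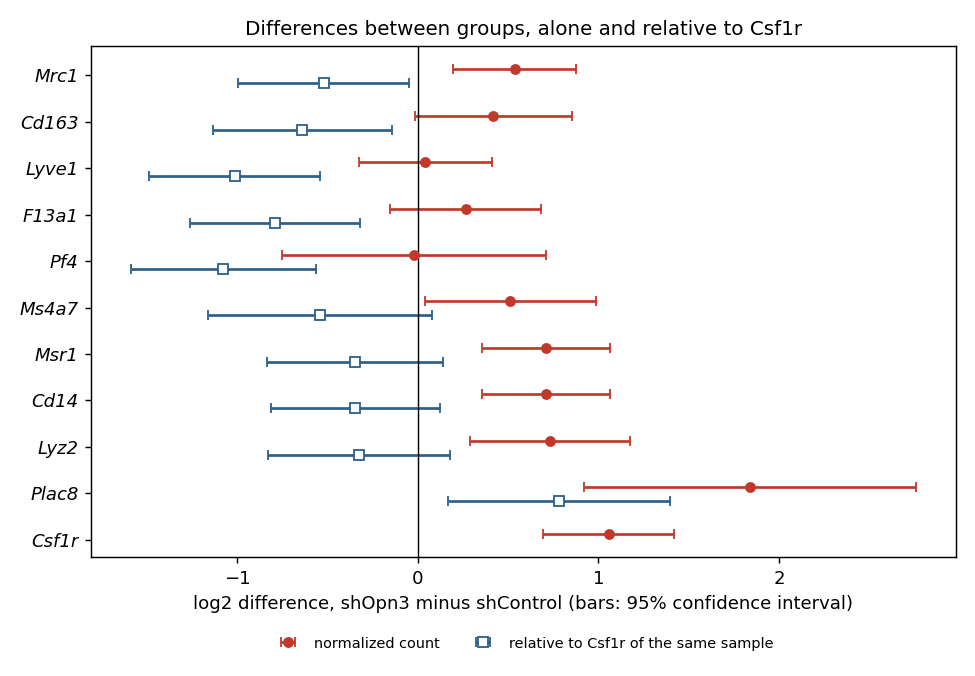
Difference between shOpn3 and shControl on the log2(normalized count + 1) scale for each member and Csf1r (filled points) and for each member relative to Csf1r of the same sample (open squares), as the limma estimate with its 95% interval. The estimate for Plac8 is above 0 on both scales (1.84 and 0.78), and those for Lyve1 (0.04 and -1.01) and Pf4 (-0.02 and -1.08) lie near 0 alone and below 0 relative to Csf1r.

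A further comparison, chosen after the values were seen, took Lyve1 as the reference, the perivascular receptor with a fold change of 1.03. It describes which members moved apart from Lyve1, and a ratio of counts of unlike genes is not a ratio of molecules. Mrc1 per count of Lyve1 was 6.19, 6.58, 7.02, 6.05 and 5.03 in shControl and 9.56, 7.88, 10.7, 8.38 and 7.16 in shOpn3. Every shOpn3 sample was above every shControl sample, which was not so for Mrc1 alone. The log2 difference of 0.49 had an adjusted p of 0.191 by limma and of 0.00229 in the blocked fit, and the exact permutation p was 0.00794. Lyz2 per Lyve1 went from 29.5 ± 4.28 to 48.1 ± 11.4 and Plac8 per Lyve1 from 1.63 ± 0.359 to 6.31 ± 3.03 (SD, n = 5 each), and these 2 of 9 ratios rose by limma, as did 5.35% of all genes tested; without shControl replicate 1 or 2 or shOpn3 replicate 3 the count was 1. With the block 5 of 9 rose (Mrc1, Cd14, Lyz2, Msr1 and Plac8), against 11.3% of all genes tested. F13a1 per Lyve1 was between 3.98 and 4.65 in shControl and between 4.31 and 5.82 in shOpn3, with an adjusted p of 0.752 by limma.

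**Figure D3:**
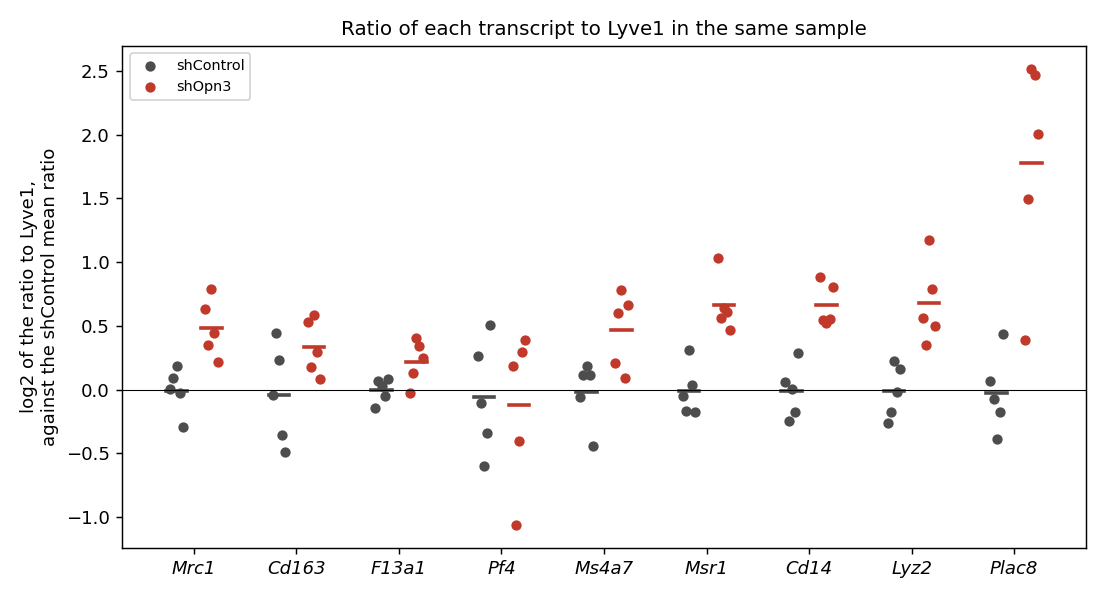
Log2 of each member's ratio to Lyve1 in the same sample, set against the mean shControl ratio, with 1 point per sample and a bar at the group mean. The ratios of Mrc1, Cd14, Lyz2 and Msr1 do not overlap between the groups, as is so with shOpn3 higher for 3.64% of all genes tested, and those of Cd163, F13a1, Pf4, Ms4a7 and Plac8 do.

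The genes that work with these members were followed as lists, given by their counts and their median log2 fold change beside the -0.02 of all genes. Of 12 further genes of perivascular macrophages, 10 could be tested, 4 rose and 0 fell, with a median of 0.40. Stab1, a scavenger receptor of these cells and of sinus vessels, had a normalized count of 283 ± 60.3 in shControl and 327 ± 89.1 in shOpn3 and did not pass the test. Siglec1, the sialic acid receptor also known as CD169, rose from 45.6 ± 14.0 to 149.9 ± 57.1 (SD, n = 5 each; adjusted p 0.00445 by limma). Ms4a6a, a relative of Ms4a7, rose by 1.23 on the log2 scale (adjusted p 0.00136 by limma), and Cd38, an NAD-consuming enzyme that neurons and astrocytes also make, by 0.48 (adjusted p 0.00261).

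Among 14 genes of monocytes and recruited macrophages, 13 were tested, 3 rose and 0 fell, with a median of 0.17, and with the block 5 rose and 1 fell. Ccr2, the first gene of this list, was not found by its symbol and was not analysed here. Those that rose were the integrin Itgal, from 182 ± 34.3 to 1091 ± 618, the galectin Lgals3, from 396 ± 108 to 1353 ± 410.4, and the hyaluronan receptor Cd44, from 1747 ± 261 to 3464 ± 403 (SD, n = 5 each). Lgals3 and Cd44 are also made by activated microglia and astrocytes. Of the genes of the Cd14 and Toll-like receptor pathway, 15 were listed, 12 tested, 8 rose and 0 fell, with a median of 0.47. Lbp, which passes lipopolysaccharide to Cd14, was at 138 ± 44.0 and 131 ± 33.1. Tlr2, a receptor for bacterial lipopeptides, rose from 370.1 ± 18.2 to 993 ± 293, the adaptor Ticam2 from 113 ± 17 to 259 ± 70.7, and the cytokine Il1b from 50.3 ± 15.5 to 194 ± 80.4. Tnf was listed at 0 in every sample. For genes at 0 throughout, whether the transcript was absent or its reads were not counted was not tested.

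Of the partners of Cd163 in haemoglobin uptake and iron handling, 12 were listed, 9 tested and 2 rose, with a median of 0.00. They were Hmox1, the enzyme that breaks down haem, from 291 ± 52.9 to 669 ± 338, and Tnfrsf12a, the receptor of a cytokine that Cd163 also binds, from 103 ± 20.7 to 158 ± 32.9. Without both samples of number 4 the count was 0, and without any 1 of shControl replicates 3, 4 and 5 and shOpn3 replicates 4 and 5 it was 1. Haptoglobin (Hp) was at 23.6 ± 7.34 and 25.3 ± 6.3 (SD, n = 5 each). Among 13 other scavenger and endocytic receptors, 10 were tested, 3 rose and 1 fell, with a median of 0.14, and with the block 4 rose and 2 fell. Stab2, a hyaluronan-binding relative of Stab1 that also stands in the hyaluronan list and is named after its values were seen, was lower in shOpn3 in 5 of 5 numbers, with an adjusted p by limma of 0.125 without the block and 0.0101 with it. Mrc2, the closest listed relative of Mrc1, had a log2 fold change of 0.08 (adjusted p 0.829 by limma), and Pla2r1, of the same family, fell by 1.34 on the log2 scale (adjusted p 0.0019). The lectin-like receptors Olr1 and Clec7a rose by 2.82 and 2.55.

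In the hyaluronan list, 4 of 11 tested genes rose and 0 fell (1 fell with the block), and the median was 0.04. The synthase Has1 was at 8.17 ± 6.30 and 10.7 ± 1.72 and was not tested. Besides Cd44, the synthase Has2 and the degrading protein Cemip rose, by 0.63 and 0.46 on the log2 scale, beside a Lyve1 that did not pass the test. The call of Has2 was lost with quantile normalization (adjusted p 0.0502 by limma) and without both samples of number 4 (0.053), where the count was 2. In the clotting and fibrinolysis list, 3 of 11 tested genes rose, with a median of 0.37: Fgg, a fibrinogen chain, F10, coagulation factor X, and Plau, the urokinase protease, by 1.29, 2.77 and 1.90. F13b, the carrier subunit of factor XIII, had a normalized count of at most 1.06 and was not tested. Of 13 tested macrophage growth factors and transcription factors, 9 rose, with a median of 1.36. The ligand Csf1 was at 1314 ± 227 and 1355 ± 127 and did not pass the test, whereas the receptor subunit Csf2rb, the transcription factor Runx1 and the monocyte-attracting chemokine Ccl2 rose by 2.11, 1.62 and 3.76. Of 10 MS4A relatives, 3 could be tested, with a median of 1.23, and Ms4a6a and Ms4a4c rose, whereas Ms4a1, of B cells, was at 13.2 ± 6.02 and 18.7 ± 12.0; the call of Ms4a4c was lost without shControl replicate 1 or 3 or shOpn3 replicate 2, 3 or 4.

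Targeting and depth were checked once. The normalized count of Opn3 was lower in shOpn3, at 188 ± 59.7 against 704 ± 277 (SD, n = 5 each; adjusted p 0.00226 by limma), with shControl replicate 5 at 261 below shOpn3 replicate 1 at 289.7. The 2 magnocellular markers Avp and Oxt, present in every sample, fell by 2.35 and 2.21 on the log2 scale. Reads per sample summed to between 33158341 and 39958578. Of all genes tested, 18.8% passed the test.

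Markers of the other cells in the punch moved beside the members. The 8 pan-myeloid genes all rose, and their summed normalized count was 9611 to 13063 in shControl and 18590 to 38107 in shOpn3. The lysosomal protein Cd68 rose from 111 ± 18.1 to 816 ± 274, the Fc receptor chain Fcer1g from 889.8 ± 117 to 2478 ± 761 and the leukocyte phosphatase Ptprc from 798 ± 94.8 to 2500.2 ± 985 (SD, n = 5 each). Of 9 tested microglia genes 6 rose, with sums of 10912 to 11571 and 14006 to 23146. The receptors P2ry12, Cx3cr1 and Gpr34 rose by 0.88, 0.98 and 0.95 on the log2 scale. The tested microglia genes that did not pass were Tmem119, at 0.69 (adjusted p 0.0511 by limma), Sall1, at 0.22 (0.446), and Olfml3, at 0.16 (0.516). With the block Tmem119 passed (adjusted p 0.0386 by limma). Dendritic cell genes rose in 3 of 7 tested: Itgax, which macrophages also carry, from 40.8 ± 6.3 to 277 ± 113, Xcr1 from 7.37 ± 3.29 to 25.02 ± 8.89, and Cd1d1 from 107 ± 26.5 to 169 ± 42.4, a call lost under 10 of 22 alternatives. Flt3, a growth factor receptor of dendritic cells, was at 282 ± 38.8 and 347 ± 52.2 and did not pass the test. B and T cell genes rose in 4 of 6, among them Cd4, which rat macrophages also carry, from 649 ± 59.2 to 2712 ± 1165, and 2 genes of T cells, Cd3e from 18.6 ± 7.59 to 55.8 ± 30.9 and Cd8a from 24.9 ± 7.28 to 52.4 ± 16.5; without shOpn3 replicate 3 the count was 2. Neutrophil genes, of which Lyz2 could be counted as a further one, had 1 of 5 tested that rose, Csf3r, with sums of 295 to 652 and 469 to 1156. S100a8 was at 68.0 ± 27.2 and 52.9 ± 41.0, and Elane at 0 in every sample. Their part in the rise of the 5 members was not tested.

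Markers of platelets, vessels and blood bear on Pf4, Lyve1 and Cd163. By limma 0 of 3 tested platelet genes changed (1 at an unadjusted p under 0.05), their sums were 77.6 to 116 in shControl and 73.3 to 162 in shOpn3, and Ppbp, a chemokine of platelets, was at 2.19 ± 1.30 and 3.80 ± 1.96. By limma 0 of 5 tested red blood cell genes changed (0 at an unadjusted p under 0.05), with sums of 36038 to 103366 and 45918 to 85227. Tested were 6 genes of blood vessel endothelium, 7 of mural cells and 7 of perivascular and meningeal fibroblasts. Limma without the block called 0 of them and found 0 at an unadjusted p under 0.05. With the block, 1 endothelial gene rose, Slco1a4 (adjusted p 0.0442 by limma). In the blocked fit the endothelial genes Cldn5 and Flt1 and the mural gene Vtn were lower and did not pass the test. Their unadjusted p by limma was 0.0246, 0.0453 and 0.0232. Without shControl replicate 3 the red blood cell count was 1, and without shOpn3 replicate 4 the mural count was 1. Cldn5, a tight junction protein of brain endothelium, was at 1177 ± 257 and 947 ± 149, the pericyte receptor Pdgfrb at 1709.9 ± 165 and 1556 ± 230.4, the fibroblast proteoglycan Dcn at 2854 ± 677 and 3049 ± 556, and haemoglobin Hba-a1 at 15752 ± 7419 and 10716 ± 3725 (SD, n = 5 each). In the lymphatic list Reln and Pdpn rose and Prox1, the defining transcription factor of lymphatic vessels, fell from 1274 ± 166 to 794 ± 159.8 (SD, n = 5 each). Neurons and glia also make these 3, and the lymphatic chemokine Ccl21 was at 0 in shControl and at most 2.88 in shOpn3. In shOpn3 replicate 4, the highest of its group for 9 members, the sums for platelets (162, next 134), endothelium (21182), mural cells (25801), fibroblasts (30289.7) and pan-myeloid genes (38107) were also the group's highest, as were those of microglia, neutrophils, dendritic cells and lymphocytes, but not those of red blood cells and lymphatic vessels. The highest Pf4 value, 237, was in that sample. Their part in the values of that sample was not tested.

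**Figure D4:**
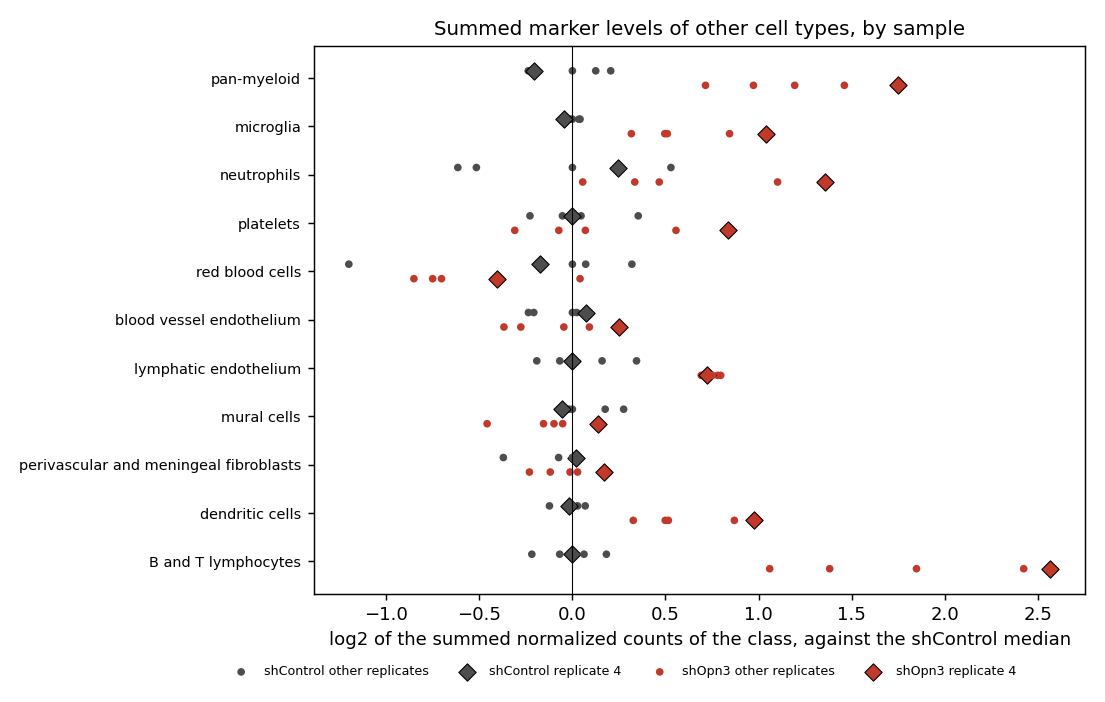
Log2 of the summed normalized counts of 11 marker classes in each sample, set against the shControl median of the class, with replicate 4 of each group as a diamond. The pan-myeloid, microglia, lymphatic, dendritic and lymphocyte sums of shOpn3 lie above those of shControl, and the neutrophil, platelet, red blood cell, endothelial, mural and fibroblast sums overlap between the groups. Reln, at 6917 to 9466 in shOpn3, makes up most of the lymphatic sum (11600 to 12469), in which Prox1 fell, and Cd4, at 1427 to 4058, most of the lymphocyte sum (1544 to 4389).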

How the data were processed

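RNA sequencing of 5 shControl and 5 shOpn3 supraoptic nuclei was deposited as 1 table of 32623 genes. Per the submitters' processing notes, FastQC, STAR, featureCounts and DESeq2 were used; the genome build, annotation release and use of strand were not given in the sources used here. Per the file headers, the table holds a signal per sample and the authors' DESeq2 comparison as a log2 fold change, a Wald score, a p-value and an adjusted p-value. That the signal is the read count divided by 1 size factor per sample was inferred from the values. Whole reads were recovered for 100% of values (tolerance 1e-04), and samples summed to 33158341 to 39958578 reads, which sets the counting precision.

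Groups were compared with limma 3.58.1 (R 4.3.3; eBayes with trend) on log2(normalized count + 1), a scale that understates changes of low genes, over the 15597 genes with a mean of at least 10. Tests were two-sided, with Benjamini-Hochberg adjustment at 0.05. By the plan limma was the main test because the deposited values are scaled and are not read counts. The edgeR 4.0.16 quasi-likelihood test and DESeq2 1.42.0 were alternatives on the recovered reads. The exact permutation test used all 252 splits of 5 against 5 and did not use the pairing by number. Swaps within 5 pairs are fewer and could not give p-values as small. Ratios to Csf1r or Lyve1 were differences of log2 values within a sample, tested the same way, with Aif1 and Ptprc as other references. The main limma comparison, without the block, was also run on simulated counts with known fold changes. The blocked fit, the ratios and the permutation test were not run on simulated counts. Same-numbered samples deviated together in all 5 pairs (r 0.12 to 0.44, against a median of -0.21 and a range of -0.45 to 0.36 for other pairs), and the labels place both viruses in each rat, so the numbers were taken to pair the samples; no label says that equal numbers mark the same rat. Promoter windows are those of RefSeq on GRCr8; there was none for Pf4 and Msr1.

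Named were all 10 members, Opn3, Avp, Oxt, Csf1r and, from each list, the first gene and up to 3 genes with the smallest adjusted p under 0.05. Lyc2, Ccl21, Elane, Stab2, Tnf, Tmem119, Sall1, Olfml3, Slco1a4, Flt1 and Vtn were named after their values were seen. The members and lists were chosen with earlier results of these data known. Alternatives covered the pseudocount, the filter, the scaling, weights, the block, the test and each sample left out.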

Additional observations from a re-analysis of the deposited data

Results flagged for a closer look

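In groups of 5 samples, a sample was looked at again where its gap to the nearest other sample exceeded 0.71 of the group's range. Of 133 groups examined 7 met this, and chance would give about 1 in 20, or 6.65. Among the members it was Ms4a7 in shOpn3 replicate 1, at a normalized count of 31.7, where the next sample had 49.3. Among the other named genes Cd44 stood at 2191 in shControl replicate 5 (next 1722), Ccl2 at 1011 in shOpn3 replicate 2 (next 328), Ms4a1 at 39.6 in shOpn3 replicate 4 (next 15.9) and Oxt at 56716 in shControl replicate 1 (next 21354). Prox1 was at 1563 in shControl replicate 5 (next 1248) and at 1074.5 in shOpn3 replicate 1 (next 772).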

How the results depend on the processing

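The count of members that rose, 5, was 3 without shControl replicate 1 or shOpn3 replicate 3 and ranged from 3 to 6 over the samples left out in turn, and it stayed within 1.5 times under all other settings. No direction of a called value reversed. Relative to Csf1r, 6 members were called, 9 with Ptprc as the reference, 5 with the block and 4 to 7 with a sample left out. The replicate block gave 5 members, the ratios to Lyve1 5 in place of 2 (1 to 2 with a sample left out), the monocyte list 6, blood vessel endothelium 1 and all genes tested 4726 in place of 2940; edgeR with the block gave 4777 of all genes tested and 6 of the monocyte list. The block moved the call of Mrc1 relative to Csf1r. Sample quality weights gave 5062 genes, 6 of the monocyte list, 6 of the clotting list, 1 MS4A relative and 1 endothelial gene. Called lower were 1322 genes of 2940, 2376 with the block, 2490 with edgeR and the block and 2520 with weights. Quantile normalization gave 1 MS4A relative; a mean of at least 50 gave 1 MS4A relative and 1 B or T cell gene, with fewer genes tested. With samples left out, counts ranged from 0 to 2 in the haemoglobin list, 2 to 5 in the hyaluronan list, 1 to 2 among MS4A relatives, 0 to 1 for red blood cells and mural cells, 2 to 4 for B and T cells, and 1973 to 3057 for all genes. The cause of each other shift was not tested. Genes with a mean normalized count under 10, such as Ppbp and F13b, are too low for a test.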

Other observations

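Lyc2, the near copy of Lyz2, was low in all samples. Its normalized count was 3.06, 22.4, 1.02, 0.936 and 19.0 in shControl and 22.1, 21.2, 3.74, 1.93 and 28.8 in shOpn3, in the order of replicates 1 to 5. Both samples of numbers 2 and 5 were at 19.0 or above and both samples of numbers 3 and 4 at 3.74 or below, while the samples of number 1 differed. Lyz2 itself did not follow this order. These values were noticed after the data were seen and no test was made.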
